A study of Mus musculus with 6 samples.

Results

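OEC2 is the cluster of olfactory ensheathing cells whose leading genes are those of the immediate-early response, with *Ier2*, *Socs3*, *Junb*, *Fos* and *Zfp36* furthest above the other ensheathing clusters. Its members were the cells that the authors' cell annotation places in the cluster called OEC2 in their table of clusters, 883 cells of 51426 annotated cells and of 11551 ensheathing cells. The annotation itself numbers the ensheathing clusters differently: the cells called OEC2 here carry the name OEC5 there, and the clusters were matched by their cell numbers in each library, which are the same in both. The other ensheathing clusters held 2252 cells (OEC1), 3436 cells (OEC3), 3240 cells (OEC4) and 1740 cells (OEC5), all in the numbering of the table.

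The study profiled dissociated olfactory bulbs of C57BL/6NJ mice by droplet single-cell RNA sequencing, with 6 libraries in 3 groups of 2. Control mice had no manipulation by the labels, although the study's text also names the open side of occluded mice as its control. Naris occluded bulbs were deprived of odor by closing 1 nostril. Trained mice learned to discriminate odors for a water reward and, per the study's methods, were deprived of water. Odor training, water deprivation and the handling in the task therefore cannot be told apart. Per the study's methods the mice were 14 weeks old and were manipulated for 6 weeks, and its supplement marks each library as a pool of 3 mice, males in replicate 1 and females in replicate 2, so a pool and not a mouse is the replicate and sex is shared by the libraries of 1 number. *Xist*, a transcript of female cells, had no count in OEC2 in the 3 libraries of replicate 1 and stood at 1623 to 1946 CPM in those of replicate 2. No gene was altered in any group, and the dissection could bring in some olfactory epithelium.

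Olfactory ensheathing cells are glia that wrap bundles of olfactory sensory axons on their way from the nose into the bulb. They derive from the neural crest, carry the transcription factor Sox10 and secrete factors that help new axons to grow in. Immediate-early genes are transcribed within minutes of a stimulus without new protein synthesis. Many of them encode parts of AP-1, a dimer of a Fos protein with a Jun protein, or of 2 Jun proteins, while others, such as Zfp36, Socs3 and the Dusp phosphatases, shut the signal off again. The response follows neuronal activity, growth factors, injury and cell handling alike. All 6 libraries were dissociated, so transcripts induced in the animal and those induced while the tissue was taken apart cannot be told apart.

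Libraries held 6705 to 10570 annotated cells and 11841160 to 17065083 unique molecular identifiers (UMIs), and gave 102 to 229 OEC2 cells each. The median OEC2 cell had 2352 UMIs, 1168 genes and 9.49% mitochondrial UMIs, with library medians of 2099 to 2798.5 UMIs. OEC1, OEC3 and OEC5 were as deep, with medians of 2108, 2116.5 and 2246.5 UMIs, whereas OEC4 was shallow, with 817 UMIs and 18.6% mitochondrial UMIs. Of 49931 distinct barcodes, 1427 occurred in 2 libraries and 34 in 3, and 53 OEC2 cells had a barcode that another library also held. No barcode was held by OEC2 cells of 2 libraries.

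The label was checked against the ensheathing markers. *Sox10* stood at 280 ± 44.2 CPM in OEC2 (mean ± SD over 6 libraries; CPM is the UMI count scaled to 1000000 UMIs of the cluster in a library), within the 174 to 298 CPM of the other ensheathing clusters. The brain lipid-binding protein gene *Fabp7* was at 12632 CPM, the Wnt antagonist gene *Frzb* at 1347 CPM and *S100b* at 1249 CPM. *Npy*, which encodes neuropeptide Y, was at 13471 CPM, between OEC3 (20739 CPM) and OEC1 (3870 CPM). None of the 15 identity genes with at least 10 CPM was above, and none below, all other ensheathing clusters in all 6 libraries. Of all 9580 genes under this filter 0.543% were above and 0.0835% below, so this count cannot check the label. Summed markers of other cell types varied by type. The 8 microglial markers came to 127 to 225 CPM by library, the 5 macrophage and monocyte markers to 10.5 to 32.4 CPM, with *Mrc1* at 1.47 CPM and *Cx3cr1* at 4.82 CPM. The 7 astrocyte markers summed to 3035 to 3499 CPM, within the 2625 to 4398 CPM of libraries of the other ensheathing clusters. The 6 markers of myelinating oligodendrocytes summed to 576 to 838 CPM, within 553 to 2077 CPM there. Endothelial markers summed to 888 to 1944 CPM, most of it *Cldn5* at 1066 CPM, a tight junction gene that OEC1 itself expressed at 3630 CPM, while *Flt1* was at 10.8 CPM. The 6 markers of olfactory sensory neurons summed to 412 to 1515 CPM, a range taken up again with *S100a5*.

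The expression that set OEC2 apart was led by AP-1. Because the clusters were formed from the expression of the same cells, the differences between OEC2 and the other ensheathing clusters are given as a description without a test. *Fos* was at 1647 and 1623 CPM in the control libraries, 1712 and 2048 CPM in the naris occluded libraries and 1929 and 2895 CPM in the trained libraries, a mean of 1976 ± 481 CPM. Its means in the other clusters were 111 CPM (OEC1), 59.4 CPM (OEC3), 36.9 CPM (OEC4) and 46.2 CPM (OEC5), so the lowest OEC2 library stood far above each of these. *Jun* was at 1603 and 1793 CPM in control, 1839 and 2120 CPM in naris occluded and 2322 and 2714 CPM in trained libraries, a mean of 2065 ± 407 CPM against 232 CPM in OEC1, the next highest. *Junb* was at 1099, 1160, 1081, 1451, 1506 and 1856 CPM in the same order, a mean of 1359 ± 304 CPM against 59.6 CPM in OEC1. *Jund*, the Jun gene with the steadiest expression in most tissues, was at 383 CPM against 94.3 CPM, and *Fosb* at 218 CPM against 14.2 CPM. *Fosl2*, a Fos gene that usually comes up later, was at 4.07 CPM in OEC2 and highest in OEC4 at 12.1 CPM, and *Atf3*, a stress-induced AP-1 partner, was at 2.81 CPM. Thus 5 of the 6 AP-1 genes with at least 10 CPM in an ensheathing cluster were above all other ensheathing clusters in every library, and *Fos*, *Jun*, *Junb* and *Jund* made up 96.3% of the AP-1 sum.

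**Figure D1:**
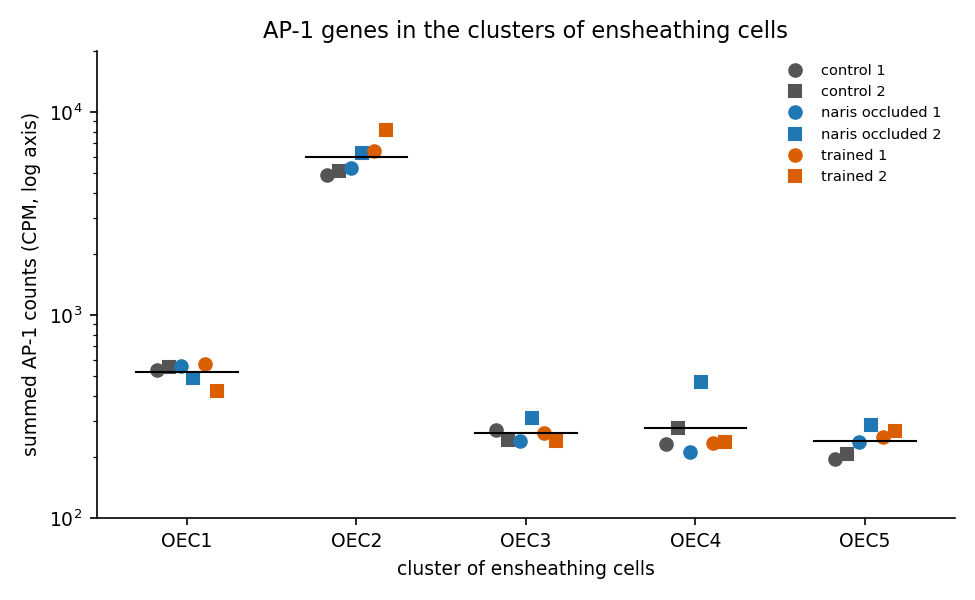
Summed AP-1 counts in CPM on a log axis (vertical) in the 5 clusters of ensheathing cells (horizontal), with 1 point for each library and a line at the mean of the 6 libraries. OEC2 lies between 4866 and 8150 CPM and the other clusters between 195 and 570 CPM, with no overlap.

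To show which DNA stands before these genes, the 250 bases upstream of the start of *Fos* (chr12:85473640-85473889, plus strand), *Junb* (chr8:84978749-84978998, minus strand), *Jun* (chr4:95052223-95052472, minus strand) and *Jund* (chr8:70697489-70697738, plus strand) are printed 5′ to 3′ from RefSeq on GRCm38.p6. These are the AP-1 genes that carried the sum, and capitals mark TGACG, the core of the cyclic AMP response element, searched on both strands.
Fos: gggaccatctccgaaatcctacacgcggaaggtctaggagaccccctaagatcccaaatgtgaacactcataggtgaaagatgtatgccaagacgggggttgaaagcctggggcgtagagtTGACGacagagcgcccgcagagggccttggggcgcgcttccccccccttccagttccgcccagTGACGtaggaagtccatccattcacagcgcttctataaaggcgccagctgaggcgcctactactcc
Junb: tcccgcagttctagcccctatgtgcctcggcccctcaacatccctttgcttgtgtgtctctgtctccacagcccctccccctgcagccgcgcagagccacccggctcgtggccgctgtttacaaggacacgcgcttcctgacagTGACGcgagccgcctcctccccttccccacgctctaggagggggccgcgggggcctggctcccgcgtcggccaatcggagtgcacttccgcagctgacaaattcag
Jun: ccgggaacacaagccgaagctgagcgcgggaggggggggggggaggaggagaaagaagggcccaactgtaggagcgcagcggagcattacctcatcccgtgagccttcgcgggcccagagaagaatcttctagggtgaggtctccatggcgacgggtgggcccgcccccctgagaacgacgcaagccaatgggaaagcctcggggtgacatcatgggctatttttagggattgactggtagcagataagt
Jund: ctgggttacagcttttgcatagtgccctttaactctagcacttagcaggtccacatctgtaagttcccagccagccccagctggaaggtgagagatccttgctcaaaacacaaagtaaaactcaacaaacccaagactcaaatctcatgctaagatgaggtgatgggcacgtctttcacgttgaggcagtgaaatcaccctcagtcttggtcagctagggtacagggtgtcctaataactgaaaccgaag
*Fos* has TGACG starting at -129 and at -66 from its start and *Junb* at -106, while these windows of *Jun* and *Jund* hold no match. TGACG occurred in 51.9% of the 52 promoters of 37 immediate-early genes and in 17.8% of all 32851 promoters of the same length. Of the 45 immediate-early genes measured, 37 had a promoter in the reference table. The full element TGACGTCA, which contains TGACG, occurred in 9.62% against 1.55%, in *Btg2*, *Dusp1*, *Errfi1*, *Maff* and *Ppp1r15a*. The CArG box, bound by serum response factor, occurred in 11.5% against 1.47% (*Dusp5*, *Egr2* and *Zfp36*), and the AP-1 site TGAGTCA in 1.92% against 4.46%, in *Csrnp1* alone. Promoters of 1 gene can overlap, so these shares describe the windows and were not tested, and a match is not a measured binding site.

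Other immediate-early genes stood apart in the same way. Their list, called other factors below, also holds genes that do not encode transcription factors, such as *Btg2*. *Ier2*, a nuclear protein gene induced by growth factors, had the largest difference of all genes, 933 ± 165 CPM in OEC2 against 33.0 CPM in OEC4, the next highest, or 4.78 on the log2 scale. Its libraries ran from 761 to 1176 CPM. *Egr1*, a zinc finger factor of the serum response, was at 254 ± 58.6 CPM against 32.7 CPM. The Krüppel-like factors *Klf2* and *Klf4* were at 207 ± 106 CPM against 16.4 CPM and at 74.8 ± 23.1 CPM against 7.43 CPM, and the antiproliferative gene *Btg2* at 104 ± 53.8 CPM against 9.80 CPM. Of the 11 genes of this list with at least 10 CPM, 10 were above all other ensheathing clusters in all 6 libraries. *Nr4a2*, an orphan nuclear receptor gene, was the exception, with 10.7 CPM in OEC2 and 24.4 CPM in OEC1, while its relative *Nr4a1* was at 52.5 CPM against 27.7 CPM in OEC3. Other members were low in every ensheathing cluster: *Arc* was at 3.18 CPM in OEC2 and 1.63 to 3.73 CPM in the others, *Npas4* at 0.589 CPM and 0.218 to 0.950 CPM, and *Egr3* had no count in any of the 5.

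Genes that limit the response were high as well. *Socs3*, an inhibitor of cytokine signalling through JAK and STAT, was at 426 ± 175 CPM against 16.8 CPM in OEC1, and ranged from 259 CPM in naris occluded library 1 to 761 CPM in trained library 2. *Zfp36*, which brings immediate-early and cytokine transcripts to decay, was at 144 ± 57.9 CPM against 7.28 CPM. *Dusp6*, a phosphatase of ERK, was at 245 ± 43.4 CPM against 91.7 CPM, and *Ppp1r15a*, which restarts translation after stress, at 160 ± 75.7 CPM against 63.4 CPM. In all, 8 of 13 feedback genes with at least 10 CPM were above all other ensheathing clusters in every library. *Dusp1* was not among them, with 29.4 ± 25.5 CPM against 8.57 CPM in OEC4 and 5 of 6 libraries above.

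Among all 2875 genes with at least 50 CPM in OEC2, 43 were above every other ensheathing cluster in all 6 libraries. Of these, 20 were above by at least 1 and 14 by at least 2 on the log2 scale (of the mean CPM plus 1, from the highest other cluster), and 18 of the 20 belong to the immediate-early lists. The remaining pair was *Hspa1a*, the inducible Hsp70 gene, at 84.7 ± 30.2 CPM against 18.2 CPM, and *Adamts1*, a secreted protease gene, at 72.2 ± 33.1 CPM against 24.1 CPM. Over genes with at least 10 CPM in an ensheathing cluster, OEC2 was above the other 4 clusters in all 6 libraries for 0.543% of 9580 genes and below them for 0.0835%. The median log2 difference of the 30 immediate-early genes with at least 10 CPM in an ensheathing cluster was 1.68, and 1.43 to 2.02 in single libraries. The median of all 9580 genes under the same filter was -0.28, and that of genes with at least 50 CPM in OEC2 was -0.19. A gene can meet the 10 CPM filter through OEC2 alone, here and in the counts by list, so these values are descriptions. *Hes1*, a target of Notch that also follows other signals, was at 442 ± 66.4 CPM against 239 CPM in OEC1, while *Hes5*, a second Notch target, was at 1021 CPM, inside the range of the other clusters (573 to 1479 CPM). *H3f3b*, which encodes the replication-independent histone H3.3, was at 1812 ± 233 CPM against 1192 CPM.

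**Figure D2:**
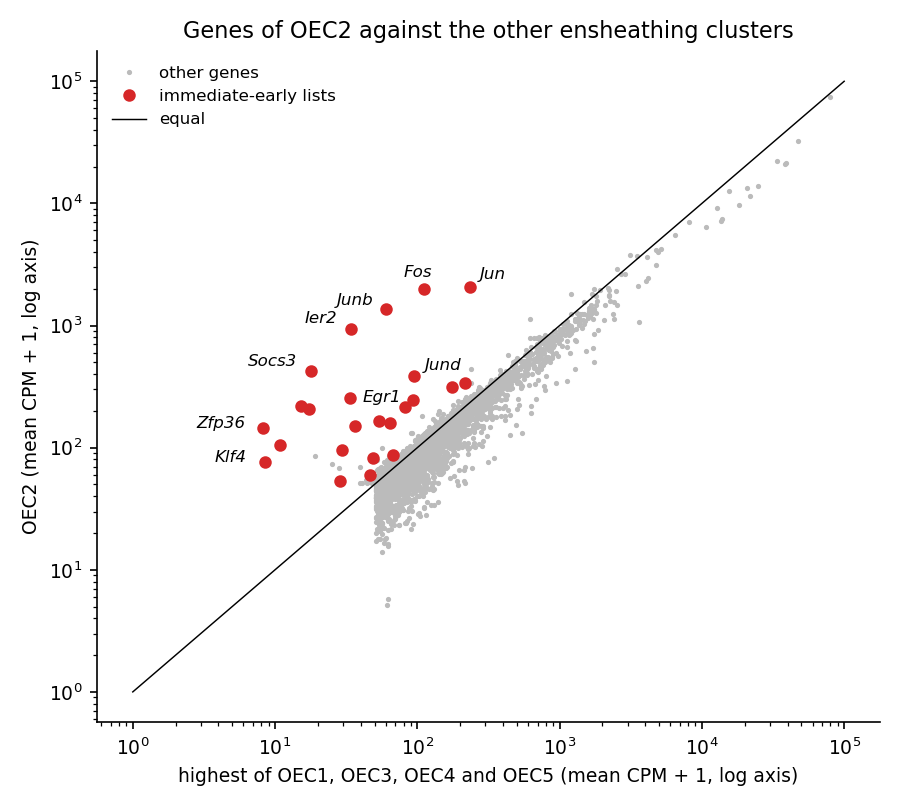
Mean CPM plus 1 over the 6 libraries in OEC2 (vertical, log axis) against the highest mean among OEC1, OEC3, OEC4 and OEC5 (horizontal, log axis), with 1 point for each gene of at least 50 CPM on either axis and the line of equal values. Genes of the immediate-early lists, drawn in red, lie above the line with *Ier2* at 933 CPM against 33.0 CPM, while most other genes lie near or below it, with *Hspa1a* (84.7 against 18.2 CPM) among those above.

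Few genes were low, under a filter on the other 4 clusters, where that for high genes was on OEC2. Of 2267 genes with at least 50 CPM in each of the other 4 clusters, 6 were below all of them in all 6 libraries, and none of these by 1 on the log2 scale. They were *Ncan* (37.9 CPM in OEC2, against 59.1 CPM in OEC1, the next lowest), *Agpat3* (51.6 against 78.7 CPM in OEC3), *Dync1h1* (43.4 against 57.2 CPM in OEC1), *Scamp5* (39.8 against 52.2 CPM in OEC3), *Arpc4* (67.5 against 87.6 CPM in OEC3) and *Psap* (669 against 772 CPM in OEC3). *Ncan* encodes neurocan, a matrix proteoglycan, *Dync1h1* the heavy chain of the dynein motor and *Psap* the precursor of the saposins of the lysosome. None of 19 secreted growth and guidance genes, 14 adhesion genes, 17 redox and metal defence genes and 10 interferon-stimulated genes stood above or below all other ensheathing clusters in every library. Over all 9580 genes these shares were 0.543% and 0.0835%, so an empty count in lists of this size says little about them. Of 4 cell division genes 1 was below, the cyclin gene *Ccnd1* (24.2 CPM, against 39.8 CPM in OEC4, the next lowest), and of 13 Notch and Id genes 2 were above, *Hes1* and *Id2* (200 against 142 CPM in OEC3). Among heat shock and chaperone genes 1 of 11 was above, *Hspa1a*. Its co-chaperone gene *Dnajb1* was above in 5 of 6 libraries, at 67.5 ± 34.8 CPM against 27.2 CPM in OEC5.

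Counts of single cells showed that the AP-1 signal was spread over the cluster. After each cell was thinned to 1000 UMIs, so that depth was equal, the median of 829 OEC2 cells was 5 AP-1 UMIs, with 1 at the 5th and 15.6 at the 95th percentile, and 4.46% had none. The median was 0 in every other ensheathing cluster, and 1.24% of OEC1, 0.127% of OEC3, 0.391% of OEC4 and 0.122% of OEC5 cells reached the OEC2 median. At this depth 74.4% of OEC2 cells had a *Fos* UMI (92.3% of all OEC2 cells unthinned), against 3.22% to 7.43% in the other ensheathing clusters. The share in the astrocyte cluster Astro1, another glial type, was 1.76%. Over the 6 libraries OEC2 held 65.8% of the AP-1 UMIs of all ensheathing cells (59.7% to 75.3% by library) and 9.62% of their UMIs. Among all 38 clusters of the series OEC2 ranked 2nd in summed AP-1, at 6008 ± 1227 CPM, after the microglial cluster MicroG2 with 10937 ± 886 CPM and before the macrophage cluster with 5121 ± 1381 CPM. The ranges of OEC2 (4866 to 8150 CPM) and MicroG2 (9934 to 11982 CPM) did not overlap, while OEC2 and the macrophages were within 1 SD of each other.

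With the immediate-early genes set aside, OEC2 cells were most often like OEC3, and next like OEC1 and OEC5. Each OEC2 cell was assigned to the cluster among OEC1, OEC3, OEC4 and OEC5 whose summed profile gave its counts the highest multinomial likelihood, leaving out the immediate-early lists and mitochondrial genes. By this measure 443 cells (50.2%) were most like OEC3, 200 (22.7%) most like OEC1, 149 (16.9%) most like OEC5 and 91 (10.3%) most like OEC4. The profiles for the cells of a library were summed over the other libraries, although the clusters had been formed on all of them. The same measure returned 76.7% to 88.1% of the cells of the other clusters to their own cluster. It placed 12.2% of OEC3, 9.31% of OEC5 and 5.11% of OEC1 cells in OEC4, shares near the 10.3% of OEC2, so OEC4-like cells in OEC2 are not told apart from misplaced ones. No OEC1 cell was placed in OEC3 and no OEC3 cell in OEC1. The share most like OEC3 was 44.4% and 53.8% in control, 56.3% and 55.0% in naris occluded and 52.2% and 33.3% in trained libraries, and that most like OEC1 was 26.5% and 20.2%, 18.5% and 18.3%, and 20.6% and 37.3%. Trained library 2 was thus the only one with more OEC1-like than OEC3-like cells, and in the OEC3-like share the trained libraries lay further apart than the means of any 2 groups. Of OEC3-like cells, OEC2 held 11.4% (of the 443 and the cells of OEC3 together), of OEC1-like cells 8.16% and of OEC5-like cells 7.89%. The cluster sum correlated with OEC3, OEC4 and OEC5 at Pearson's r of 0.946, 0.950 and 0.950 and with OEC1 at 0.873, across 3504 genes that share libraries and chemistry.

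**Figure D3:**
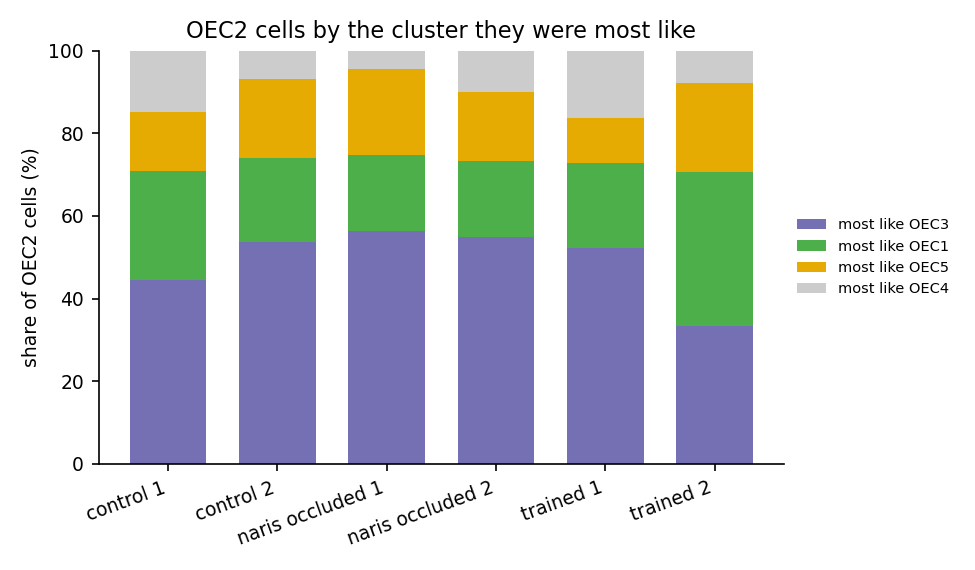
Share of OEC2 cells in percent (vertical) by the ensheathing cluster each was most like, stacked to 100 for each of the 6 libraries (horizontal). Cells most like OEC3 make up 44.4% to 56.3% in the first 5 libraries and 33.3% in trained library 2, where cells most like OEC1 make up 37.3%.

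The classes differed in the genes that mark the clusters they were named after, which the assignment itself used. OEC1-like cells of OEC2 had *Cldn5* at 3513 CPM and the insulin-like growth factor binding protein gene *Igfbp5* at 1404 CPM, against 59.8 and 195 CPM in OEC3-like cells. OEC3-like cells had the serine protease gene *Prss56* at 1251 CPM and the water channel gene *Aqp1* at 839 CPM, against 11.6 and 29.0 CPM in OEC1-like cells. All 4 classes carried the immediate-early genes: *Fos*, which the assignment did not use, was at 2586 CPM in OEC1-like, 1613 CPM in OEC3-like, 1689 CPM in OEC4-like and 2335 CPM in OEC5-like cells.

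AP-1 was higher in OEC1-like and OEC5-like cells of OEC2 than in OEC3-like cells. Summed AP-1 in OEC1-like cells was 6334 and 6753 CPM in control, 5895 and 8467 CPM in naris occluded and 8163 and 10222 CPM in trained libraries. In OEC3-like cells it was 3970 and 3641, 4928 and 5463, and 5093 and 6053 CPM. Within each library the OEC1-like cells were higher, by 0.65 ± 0.21 on the log2 scale (mean ± SD, higher in 6 of 6 libraries). OEC5-like cells stood at 7244 ± 1441 CPM and were above OEC3-like cells by 0.57 ± 0.33 (6 of 6 libraries). OEC1-like and OEC5-like cells differed by 0.08 ± 0.19, with OEC1-like cells higher in 4 of 6 libraries. OEC4-like cells were at 5477 ± 597 CPM, below OEC1-like cells in 6 of 6 libraries and above OEC3-like cells in 5 of 6. These are descriptions without a test, since the cluster was formed from the expression of the same cells, and OEC1-like and OEC5-like cells numbered 15 to 43 a library. Across whole clusters, OEC1 also had more AP-1 than OEC3 (521 against 261 CPM), and OEC5 had 240 CPM.

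**Figure D4:**
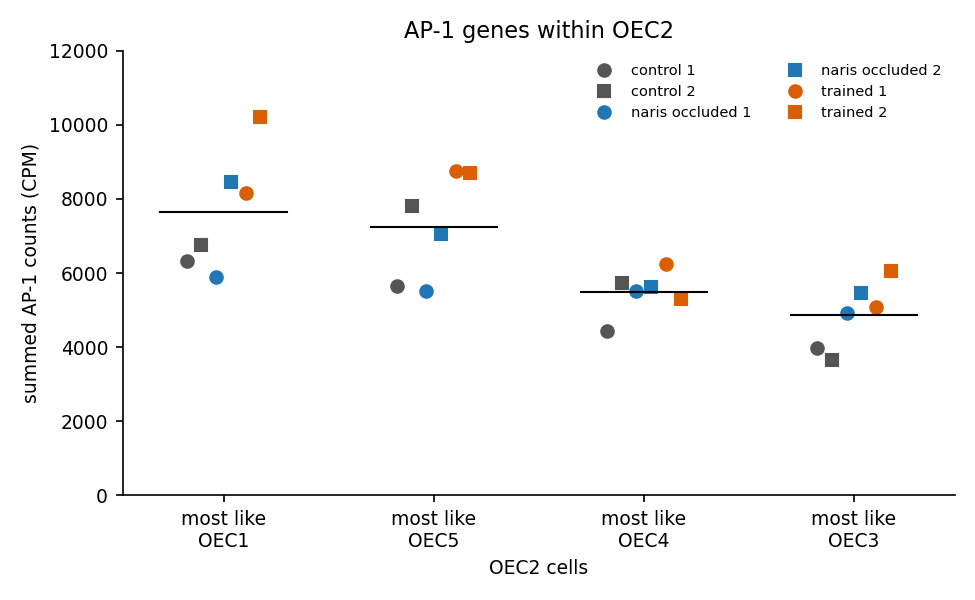
Summed AP-1 counts in CPM (vertical, from 0) in OEC2 cells grouped by the cluster they were most like (horizontal), with 1 point for each library and a line at the mean. OEC1-like cells (mean 7639 CPM) and OEC5-like cells (mean 7244 CPM) lie above OEC3-like cells (mean 4858 CPM) in each library.

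The design asks next whether odor experience changed the size of OEC2. OEC2 made up 1.62% and 1.54% of the cells of the control libraries, 1.85% and 2.50% of the naris occluded libraries and 1.29% and 1.52% of the trained libraries. The Wilson 95% intervals, which cover counting error only, were 1.39% to 1.89%, 1.29% to 1.84%, 1.57% to 2.19%, 2.2% to 2.84%, 1.09% to 1.52% and 1.25% to 1.84%. The naris occluded libraries were the highest pair, and library 2 stood above all others. By edgeR's quasi-likelihood test on cell numbers, adjusted over 38 clusters, OEC2 differed by 0.46 ± 0.27 on the log2 scale (± SE) between naris occluded and control (adjusted p = 0.489) and by -0.18 ± 0.28 between trained and control (adjusted p = 0.764). Without single libraries these values ranged from 0.23 to 0.66 and from -0.30 to -0.06. Between trained and naris occluded OEC2 differed by -0.64 ± 0.28 (edgeR's quasi-likelihood test across the 38 clusters, adjusted p = 0.100). It passed with the replicate number, which stands for sex, as a block (-0.63, adjusted p = 0.0239 in edgeR). It also passed without naris occluded library 1 (-0.84, adjusted p = 0.0305 in edgeR), where the 1 library left is assumed to vary like the other groups. In these comparisons 2.63%, 0% and 21.1% of clusters passed, which is 1, 0 and 8 clusters. As a share of ensheathing cells OEC2 was 7.56% and 6.72%, 7.21% and 10.0%, and 7.02% and 6.59%, and an exact permutation test of 2 libraries against 2 cannot go below p = 0.333. Clusters were formed from expression, and the part of the immediate-early genes in the number of cells counted as OEC2 was not tested.

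Counts summed over the OEC2 cells of each library were compared between conditions for 5433 genes, as CPM after TMM scaling over these genes. Naris occlusion changed 1 gene at an adjusted p below 0.05, 0.0184% of those tested: *S100a5*, a calcium-binding protein gene of olfactory sensory neurons whose expression follows odor activity. It was at 749 and 509 CPM in control, 146 and 194 CPM in naris occluded and 920 and 324 CPM in trained libraries. The naris occluded libraries were the lowest, and the fall from control was 1.88 ± 0.27 on the log2 scale (edgeR, adjusted p = 0.000318). Without control library 1 it was 1.57 (edgeR, adjusted p = 0.0777). Against naris occluded, trained libraries were higher by 1.86 ± 0.28 (edgeR, adjusted p = 0.000403), and without trained library 1 by 0.90 (edgeR, adjusted p = 0.106). In all 38 clusters both naris occluded libraries had less *S100a5* than both controls. Its level was highest in the sensory neuron cluster Neuron01, at 20370 CPM, and 440 ± 291 CPM in OEC2. The other 5 markers of sensory neurons summed in OEC2 to 493 and 350 CPM in control, 275 and 372 CPM in naris occluded and 649 and 208 CPM in trained libraries, so control and naris occluded overlapped. The 7 general neuron markers summed to 530 and 456, 338 and 322, and 524 and 338 CPM. Of the 6 of these tested, all had log2 values below 0 in naris occluded against control, with a median of -0.66, and none passed. *S100a5* was thus lower after occlusion in OEC2 as in every other cluster, and the part of transcripts from neurons in it was not tested.

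Training against control changed 5 of 5433 genes (0.0920%), 2 of them immediate-early genes. *Klf2*, a Krüppel-like factor, was at 148 and 136 CPM in control, 98.1 and 261 CPM in naris occluded and 382 and 309 CPM in trained libraries, and rose by 1.28 ± 0.26 on the log2 scale (edgeR, adjusted p = 0.0223). *Btg2* was at 65.5 and 66.0, 64.5 and 117, and 156 and 199 CPM, and rose by 1.42 ± 0.29 (edgeR, adjusted p = 0.0223). For both genes the trained libraries were the highest, and naris occluded library 2 lay between them and control. Both belong to the lists that set OEC2 apart, and the part of the cluster border in their calls was not tested. Over all ensheathing cells together *Klf2* differed by 0.996 and *Btg2* by 1.15 without passing (edgeR, adjusted p = 0.569 and 0.144). *Hspa8*, the constitutive Hsp70 chaperone gene, was at 538 and 633, 485 and 687, and 1293 and 875 CPM, and rose by 0.89 ± 0.19 (edgeR, adjusted p = 0.0320). Without single libraries its difference ranged from 0.57 to 1.14. *Cirbp*, an RNA-binding protein gene that is induced by cold and lowered by heat, was at 384 and 354, 362 and 380, and 136 and 228 CPM, and fell by 1.03 ± 0.20 (edgeR, adjusted p = 0.0223). Its difference ranged from -1.44 to -0.71 without single libraries. *Sema6d*, a transmembrane semaphorin gene of axon guidance, was at 128 and 140, 112 and 108, and 35.6 and 49.8 CPM, and fell by 1.64 ± 0.31 (edgeR, adjusted p = 0.0223). The control and trained libraries did not overlap for any of the 5 genes. All 5 calls were lost without control library 1 (adjusted p of 0.190 to 0.492 in edgeR). Those of *Klf2*, *Hspa8*, *Cirbp* and *Sema6d* were also lost without trained library 1 (0.121 to 0.340), and that of *Btg2* without trained library 2 (0.219).

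Against naris occluded, training changed 6 genes (0.110%). *Cirbp* (-1.04 ± 0.20, edgeR, adjusted p = 0.0132) and *Hspa8* (0.88 ± 0.18, adjusted p = 0.0370) moved as against control, with which this comparison shares the trained libraries. *Wls*, which carries Wnt proteins to the cell surface, was at 179 and 128 CPM in naris occluded and 282 and 366 CPM in trained libraries, with controls at 225 and 152 CPM, and rose by 1.09 ± 0.21 (edgeR, adjusted p = 0.0132). *Htra1*, a secreted serine protease gene, was at 308 and 250 CPM against 509 and 502 CPM, with controls at 353 and 245 CPM, and rose by 0.86 ± 0.18 (edgeR, adjusted p = 0.0370). *Gm26532* was at 5.61 and 22.1 CPM against 48.6 and 99.6 CPM (2.28 ± 0.49, edgeR, adjusted p = 0.0440), on few counts. *Htra1* had the smallest difference of the 6 and was named after its values were seen. The calls of *Cirbp* (adjusted p = 0.231) and *Hspa8* (0.343) were lost in edgeR without trained library 1, and those of *Wls* (0.126) and *Gm26532* (0.555) without trained library 2. *Hspa8* (0.159) and *Gm26532* (0.121) were also lost without naris occluded library 1, and *Wls* (0.199) without naris occluded library 2. DESeq2 called no gene in OEC2 in any of the 3 comparisons. In the order of their description here, 228, 365 and 411 genes had an unadjusted p below 0.05 in edgeR, and 18, 73 and 72 in DESeq2.

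**Figure D5:**
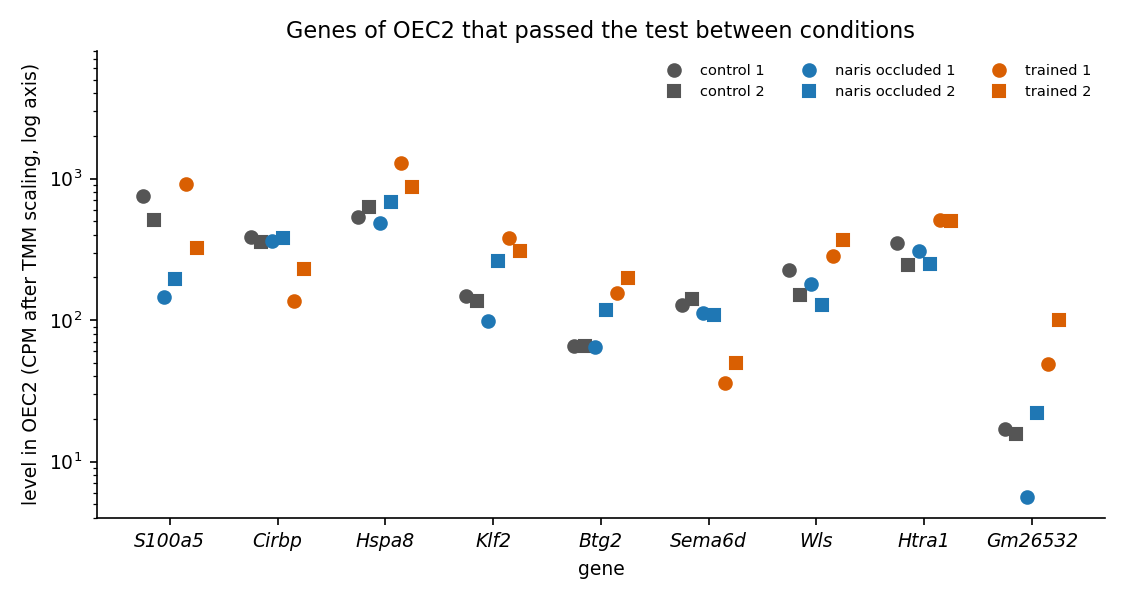
Level in OEC2 in CPM after TMM scaling (vertical, log axis) of the 9 genes that passed in any comparison of conditions (horizontal), with 1 point for each of the 6 libraries. *S100a5* is lowest in naris occluded libraries (146 and 194 CPM), and *Cirbp* and *Sema6d* are lowest and *Klf2*, *Btg2*, *Hspa8*, *Wls*, *Htra1* and *Gm26532* highest in trained libraries.

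Shifts of *Cirbp* and *Hspa8* were not limited to OEC2. Both trained libraries had less *Cirbp* than both controls in 29 of 38 clusters and more *Hspa8* in 29 of 38, each including all 5 ensheathing clusters. *Htra1* was higher in trained than in naris occluded libraries in 14 of 38 clusters, all 5 ensheathing ones included, and lower in 3. In that comparison *Wls* was higher in 7 and lower in 7, and *Gm26532* higher in 5 and lower in 5. *Klf2* was higher in trained than in control libraries in 15 clusters and lower in 3, *Btg2* higher in 9 and lower in 7, and *Sema6d* lower in 9 and higher in 4. Clusters share their libraries, so these counts are not independent. Of the 10 heat shock and chaperone genes tested in OEC2, all had log2 values above 0 against control, with a median of 0.43 beside 0.00381 over all genes tested, and 3 were higher in both trained libraries, where 17.8% of all genes were. *Hspa8* alone passed the test, which 0.0920% of all genes did.

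The AP-1 genes themselves were higher in trained than in control OEC2 cells without passing the test. OEC2 was set apart by a clustering on expression that can draw on these same genes, so their p-values depend on its border. The part of the border in these values was not tested. *Jun* after TMM scaling was at 1731 and 1970 CPM in control, 1952 and 2315 CPM in naris occluded and 2469 and 2882 CPM in trained libraries. Trained and control libraries did not overlap, and differed by 0.53 ± 0.15 on the log2 scale (edgeR, adjusted p = 0.183). *Fos* was at 1779 and 1783, 1817 and 2236, and 2051 and 3074 CPM (0.52 ± 0.16, adjusted p = 0.332), and *Junb* differed by 0.54 ± 0.16 (adjusted p = 0.332). *Fos* differed by 0.77 without trained library 1 but by 0.20 without trained library 2, and *Jun* by 0.53 without naris occluded library 1. *Ier2* differed by 0.36 ± 0.17 (adjusted p = 0.736) and *Egr1* by 0.53 ± 0.18 (adjusted p = 0.483), or 0.21 and 0.30 without trained library 2. *Jund* was at 398 and 499 CPM in naris occluded and 428 and 459 CPM in trained libraries, so it was not highest with training. All 5 tested AP-1 genes had higher values in both trained than in both control libraries, as did 6 of 10 other immediate-early factors and 6 of 12 feedback genes, where 17.8% of all genes did. Of the other factors 2 were lower in both trained libraries, *Ier5* (-0.39) and *Btg1* (-0.11), where 17.9% of all genes were. The medians of the 3 lists were 0.52, 0.44 and 0.45, beside a median of 0.00381 over all genes tested. Other lists had shifted values in the same comparison without a gene passing. Of the 11 mitochondrially encoded genes 8 were lower in both trained than in both control libraries (median -0.18), as were 7 of 10 genes that the authors list for OEC3 (median -0.22). Of 10 genes listed for OEC1, 5 were higher in both trained libraries (median 0.47). The 8 microglial markers summed to 127 and 159 CPM in control and 174 and 198 CPM in trained libraries, and 2 of the 4 tested were higher in both trained libraries (median 0.30). The part of these shifts in the AP-1 values was not tested. Within the OEC1-like, OEC3-like and OEC5-like cells, taken separately, summed AP-1 was higher in both trained than in both control libraries. In the OEC4-like cells (8 to 24 in these libraries) control (4446 and 5719 CPM) and trained (6255 and 5303 CPM) libraries overlapped. The other classes held 15 to 72 cells a library here and share their libraries, and 17.8% of single genes were higher in this way. All these cells come from a cluster set apart by its expression, and the part of its makeup in the AP-1 values was not tested.

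In naris occluded against control OEC2 cells, none of the 27 tested genes of the 3 lists passed, and 2 of 5, 4 of 10 and 5 of 12 were higher in both naris occluded than in both control libraries, against 18.0% of all genes. Their medians were 0.19, 0.36 and 0.10. Of the 4 microglial markers tested, 2 were also higher in both naris occluded libraries and 1 had a log2 value below 0 (median 0.37). Their part in these values was not tested. *Fos* differed by 0.19 ± 0.16 and *Jun* by 0.21 ± 0.15 (edgeR, adjusted p = 0.9997 for both). Without single libraries *Fos* ranged from 0.03 to 0.32 and *Jun* from 0.08 to 0.32. Between trained and naris occluded, 2 of 5, 4 of 10 and 4 of 12 were higher in both trained libraries, against 17.4% of all genes, and 0 of 5, 3 of 10 (*Ier5* at -0.81, *Btg1* at -0.46 and *Klf6* at -0.17) and 0 of 12 were lower, against 18.6%. The medians were 0.33, 0.11 and 0.36. These lists were not compared with other genes by a test, and the part of the cluster border in their values was not tested.

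Because OEC2 stood apart in its immediate-early genes, the same comparison was made over all ensheathing cells together, where cells cannot pass between OEC2 and the other ensheathing clusters. Summed AP-1 was 734 and 720 CPM in control, 742 and 1094 CPM in naris occluded and 901 and 1050 CPM in trained libraries. The trained libraries were above both controls, and naris occluded library 2 was the highest of all. Among 12077 genes, *Fos* differed by 0.53 between trained and control (edgeR, adjusted p = 0.486) and *Jun* by 0.37 (adjusted p = 0.598), and no gene passed (0% of those tested, 798 with an unadjusted p below 0.05 in edgeR, 17 called by DESeq2 and 14 by edgeR with the replicate number as a block). Without trained library 2 the count was 109, and without a filter on low counts 147. Without single libraries *Fos* ranged from 0.31 to 0.74 and *Jun* from 0.30 to 0.46. All 6 tested AP-1 genes were higher in both trained than in both control libraries, where 17.8% of all genes were. So were 9 of 12 heat shock and chaperone genes (median 0.51). Lower in both trained libraries were all 4 tested red blood cell markers (median -2.19) and 5 of 10 interferon-stimulated genes (median -0.63), where 18.6% of all genes were. Naris occlusion changed 1 gene (0.00828%), *S100a5*, by -1.79 (edgeR, adjusted p = 0.0321), and trained against naris occluded changed 2 (0.0166%), *S100a5* by 1.75 and *Cirbp* by -0.81, or 22 genes with the block and 283 without trained library 2.

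The change in OEC2 was then compared with that in the other ensheathing cells of the same libraries. For training against control, the difference of changes passed for 39 of 11036 genes (0.353%), 26 of them higher and 13 lower in OEC2, and for naris occlusion for none (0%, 503 with an unadjusted p below 0.05 in edgeR, no other tool run). The 39 genes became 14 without trained library 2, 15 without control library 1, 18 without control library 2 and 8 with OEC3 alone as the comparison. The cells of the rest are those that the clustering on expression left outside OEC2, so a cell whose immediate-early counts differ could fall on the other side of the border. The values of the immediate-early genes are therefore given without a test. The 39 genes include 3 AP-1 genes, 1 other immediate-early factor, and 6, 4 and 2 genes that the authors list for OEC1, OEC3 and OEC5. The count is thus under the same limit, and the part of the border in it was not tested. *Jun* in OEC2 was at 1611 and 1851 CPM in control and 2333 and 2699 CPM in trained libraries on the TMM scale of this fit, and in the other ensheathing cells at 118 and 141 CPM and at 111 and 108 CPM. *Junb* was at 1105 and 1197 CPM and at 1513 and 1846 CPM in OEC2, and at 45.1 and 41.5 CPM and at 36.7 and 29.0 CPM in the rest. For both genes the trained libraries were above both controls in OEC2 and below them in the rest. The differences of changes were 0.77 for *Jun*, 0.94 for *Junb*, 0.55 for *Fos* and 0.73 for *Ier2* on the log2 scale, and without single libraries 0.64 to 0.90, 0.64 to 1.27, 0.19 to 0.91 and 0.37 to 0.99. With OEC3 alone as the comparison *Jun* differed by 0.43 and *Ier2* by 0.92. Against all other ensheathing cells, the differences of all 7 microglial markers tested were above 0 (median 0.47). Those of all 11 mitochondrially encoded genes were below 0 (median -0.20). The part of these shifts in the immediate-early values was not tested.

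Marker genes of the ensheathing clusters also differed, and are given without a test for the same reason. Of 10 genes that the authors list for OEC1, all had a difference of changes above 0, with a median of 0.64, and *Igfbp7* at 0.89, *Igfbp5* at 0.79 and *Cldn5* at 0.66. In OEC2 itself *Igfbp7* was at 503 and 304 CPM in control and 475 and 908 CPM in trained libraries, *Igfbp5* at 662 and 591 and at 564 and 1019 CPM, and *Cldn5* at 1184 and 735 and at 1030 and 1753 CPM. Trained library 2 alone was above both controls for all 3 genes. Of 10 listed for OEC3, all were below 0, with a median of -0.35, and *Npy* at -0.46, *Kctd12* at -0.53, *Aqp1* at -0.59 and *Ptn* at -0.24. *Npy* in OEC2 was at 14738 and 13582 CPM in control and 12127 and 10945 CPM in trained libraries, while those of *Aqp1* overlapped (538 and 435, and 591 and 405 CPM). The median over all genes tested was -0.00675. Those lists were chosen by the authors on these libraries and are not independent evidence of a direction. Beside this, OEC1 made up 24.0% and 20.4% of the other ensheathing cells in control and 12.9% and 19.1% in trained libraries, and the share of OEC1-like cells in OEC2 was 26.5% and 20.2% in control and 20.6% and 37.3% in trained libraries, which overlap. The part of this makeup in the difference of changes was not tested.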

How the data were processed

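Droplet single-cell RNA sequencing was run by the authors on 6 libraries of dissociated mouse olfactory bulb. The deposited values are raw UMI counts per gene and cell, made by the authors with Cell Ranger 2.0.0 on mm10 and merged across libraries, and the submitters' processing notes also name Seurat 2.2.1. Cells had at least 200 genes, and the authors clustered them after regression on UMIs and mitochondrial genes and removed doublets, so no doublet caller was run here. The deposited cell annotation gives each cell's library, its cluster and the mitochondrial share of its UMIs as a fraction. Of 52549 barcodes with counts, the 51426 annotated cells were used, with 18560 genes. Libraries were taken from the annotation, since the names of 17275 cells of the trained libraries start with the name of the other trained library. A log-normalized table of the same counts and an annotation of neurons alone were not used.

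For each library the counts of a cluster's cells were added up, since cells are not replicates, and given as CPM of the sum. OEC2 was set beside the other ensheathing clusters by mean CPM plus a pseudocount of 1, for genes with at least 50 CPM (10 CPM in gene lists). Conditions were compared with edgeR 4.0.16 in R 4.3.3 by the quasi-likelihood test with TMM factors, filterByExpr and Benjamini-Hochberg adjustment over all genes tested (threshold 0.05), in 1 fit over all 6 libraries. Cell numbers were tested likewise over 38 clusters. The difference of changes was the interaction of OEC2 with condition in a fit with a term for each library. DESeq2 1.42.0 was an alternative. Exact permutation was applied only to the shares of OEC2 among all cells and among ensheathing cells. Thinning, likeness and figures were done in Python 3.11.15. Members, gene lists and tests were chosen with earlier results of these data known. Named were the 15 genes furthest above and up to 10 furthest below the other ensheathing clusters in all 6 libraries, the 5 genes with the largest fold change in each comparison among those that passed, and up to 4 genes of each list, with AP-1 and immediate-early genes named throughout. Fewer than 10 genes were below. Values of 2 genes are not reported here. Where values of more genes of a list are given, those were chosen after they were seen. In counts simulated on these libraries, 38.5% of 200 genes changed by 1 on the log2 scale were recovered in OEC2 (5433 genes), 59.5% in all ensheathing cells (12077 genes) and 10.5% for the difference of changes (11036 genes), with 6, 12 and 0 false calls. Simulated cells were returned to their own cluster in 100% of 200 cells for each of 4 clusters. They were drawn from the summed profiles they were scored against, so this share does not measure how well real cells are placed.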

Additional observations from a re-analysis of the deposited data

Results flagged for a closer look

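Under training, the change of 39 genes differed between OEC2 and the other ensheathing cells of the same libraries by the interaction test in edgeR (14 without trained library 2, 15 without control library 1, 18 without control library 2). The border between these groups was drawn by a clustering of the same cells, and its part in the difference was not tested. The largest log2 differences of the changes among those passing were 3.91 for *Hba-a2* and 3.84 for *Hba-a1*, the alpha globin genes of red blood cells. *Hba-a2* was at 63.3 and 10.5 CPM in control and 4.33 and 3.99 CPM in trained libraries of the other ensheathing cells, and at 15.9 and 7.30 CPM and 12.2 and 26.7 CPM in OEC2, so the difference came mostly from the other cells. *Fam195a* differed by 3.33, the matrix protease gene *Adamts5* by 2.69 and *Gm26532* by 2.17, each with at most 93.3 CPM in any OEC2 library. *Fam195a* in OEC2 was at 5.30 and 0 CPM in control, 31.5 and 20.8 CPM in naris occluded and 45.9 and 23.3 CPM in trained libraries. Its OEC2 controls were thus near 0, and both naris occluded libraries were above them too. *Adamts5* in OEC2 was at 7.95 and 7.30, 15.8 and 24.9, and 42.9 and 20.0 CPM in the same order. Without control library 1 the globin calls were lost (adjusted p = 0.593 and 0.837 in edgeR), as were those of *Fam195a* (0.127), *Adamts5* (0.297) and *Gm26532* (0.0852). Without control library 1 *Fam195a* was at 8.75, without trained library 1 *Adamts5* was at 1.77 (adjusted p = 0.799 in edgeR) and without trained library 2 *Gm26532* was at 1.52 (0.802). Without single libraries *Hba-a1* ranged from 2.05 to 4.78 and *Hba-a2* from 2.70 to 4.44.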

How the results depend on the processing

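For the 56 results, 579 alternative values were computed under 18 settings. Of the values that answer a comparison 81 kept their direction and call (or stayed within 1.5 times), 2 newly passed and 49 moved. Of those for single genes 372 kept direction and call, 67 no longer passed, 5 newly passed and 3 reversed. The median of the immediate-early genes was 1.39 with a pseudocount of 10 CPM. The number of OEC2 cells, trained against naris occluded, passed with a replicate block (-0.63, adjusted p = 0.0239 in edgeR). Without single libraries it ranged from -0.84 to -0.40 and passed without naris occluded library 1. Without single libraries, *Junb* in naris occluded against control ranged from -0.10 (without naris occluded library 2) to 0.36, *Ier2* from -0.14 (without the same library) to 0.36, and *Ier2* in trained against naris occluded from -0.0078 (without naris occluded library 1) to 0.49, the 3 reversals.

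In OEC2, in the order naris occluded against control, trained against control and trained against naris occluded, DESeq2 called 0, 0 and 0 genes. Without a filter on low counts 21 and 21 genes were called in the latter comparisons, and without single libraries 0 to 5, 1 to 25 and 6 to 20. Over all ensheathing cells the calls were 50, 147 and 233 without a filter and 0, 17 and 26 with DESeq2, and the replicate block gave 14 and 22 in the latter comparisons. Without single libraries they were 0 to 1, 0 to 109 (109 without trained library 2) and 1 to 283 (283 without trained library 2). For the difference of changes, OEC3 alone as the comparison gave 2 genes for occlusion and 8 for training, and leaving out libraries gave 0 to 1 and 14 to 40. The cause of these shifts was not tested. The replicate number, which stands for sex, was not in the main fits. Same-numbered OEC2 libraries correlated at 0.0979, 0.0617 and 0.0607 in their deviations across 5433 genes, which cannot show that sex had no part. In OEC2 the block gave 1, 5 and 7 genes. Leaving out a library also leaves the sexes unbalanced between groups. With 2 libraries a group, and 102 to 229 OEC2 cells in each, a missing call does not show that a gene was alike.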
